A study of Mus musculus with 14 samples.

Results

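The Hox genes encode homeodomain transcription factors that lie side by side in the clusters HoxA, HoxB, HoxC and HoxD. The 38 described here, 10 in HoxA, 10 in HoxB, 9 in HoxC and 9 in HoxD, were taken by name from the 21887 protein-coding genes of a RefSeq table (GRCm38.p6), and no threshold on a measured value entered the rule. They were proposed with earlier results of these data known. The selection rule speaks of 39 Hox genes, and the remaining 1 is not reported here. The study used CUT&RUN, where a nuclease guided by an antibody cuts out the DNA at the bound protein or mark, with antibodies to acetylated histone H3 lysine 27 (H3K27ac), to the genome-folding protein CTCF and to ETS1, a transcription factor of T cells. The cells were Th1 cells, the interferon-producing class of helper T cells, grown from spleen naive CD4 T cells over 6 days with antibodies to CD3 and CD28, IL-12 at 10 ng/mL and IL-2 at 1 ng/mL. The wild-type cells came from C57BL/6J mice (WT), and the other cells from C57BL/6J-Ets1-SE-KO mice (KO), in which, by the strain label, an element at the Ets1 locus was knocked out. Each antibody was used in 2 WT and 2 KO libraries, and a control antibody (IgG) in 1 library per genotype.

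By the sample titles, both WT libraries of an antibody come from 1 biological replicate and differ only technically, while the KO pair are 2 biological replicates, so the SD over WT libraries is a technical spread. The tests below take libraries as units and so count the WT replicate more than once. Each was repeated with the WT libraries averaged, which leaves 3 biological replicates per antibody, an alternative added after the data were seen. Since the lists give called peaks without read counts, sequencing depth is unknown, and every value here is a number of peaks or a length of sequence under them. With 2 libraries against 2, no exact permutation test can give a two-sided p below 0.333, and no p from either unit shows a difference between genotypes. The label was checked on Ets1 itself, where H3K27ac peaks covered 46.6 and 44.1 kb of the gene in the WT libraries and 24.3 and 23.4 kb in KO. Over the whole genome the CTCF peaks covered 1.31 times as much sequence in KO as in WT, and the H3K27ac peaks also 1.31 times. The numbers of CTCF peaks ran from 31368 to 33144 in WT and from 39345 to 40502 in KO. The ETS1 lists were uneven within a genotype, with 14013 and 23419 peaks in WT against 40705 and 9344 in KO. An H3K27ac region called in all 4 libraries lay in or within 10 kb of 8 of 10 Th1 and T cell marker genes, 2 of 5 B cell markers, 2 of 5 myeloid markers and 0 of 5 haematopoietic progenitor markers. Among the T cell genes without one were Cxcr3, a chemokine receptor with no H3K27ac peak in any library, and Ifng, the interferon gene, with 0.727 kb in WT library 1 and none in the other 3.

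Genes within a Hox cluster are numbered by paralogue group. Low numbers stand at the anterior end, which acts in the head and neck of the embryo, and high numbers at the posterior end, which acts toward the tail. Where a cluster is silent, Polycomb complexes keep it compact and marked by H3K27 methylation, which cannot share a lysine with acetylation. CTCF stops the loop-forming cohesin complex and is known to bind several sites within Hox clusters, where it separates active from repressed genes in embryonic tissues. In blood, several Hox genes are known for their activity in stem and progenitor cells.

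Each cluster was examined from its first to its last Hox gene with 10 kb on either side. The HoxA window was chr6:52152417-52270880 (118.5 kb) and the HoxB window chr11:96184316-96378254 (193.9 kb). HoxC was examined over chr15:102911131-103046856 (135.7 kb) and HoxD over chr2:74658225-74775142 (116.9 kb). Together the windows spanned 565.0 kb. For each antibody, peaks that overlapped by at least 1 bp between libraries were joined into 1 region, and a region with a peak in all 4 libraries is called shared.

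Sequences of some promoters where peaks bear on a Hox gene are given first, from RefSeq (GRCm38.p6). Each holds the 250 bases before a transcription start, 5′ to 3′ on the strand of the gene. The Hox promoters at hand covered 22 of the 38 Hox genes, so starts of the other genes under peaks are not shown. The distal Hoxa3 start is shown because its promoter lay whole inside a CTCF peak in each of the 4 libraries (minus strand, chr6:52213068-52213317). The Hoxd3os1 start, of a transcript antisense to Hoxd3, is shown because 83 of its 250 bases lay in a CTCF peak of every library (minus strand, chr2:74716131-74716380). Its capitals mark the only match to CCNNNAGNNGGC, a part of the CTCF motif with free positions, found on the opposite strand at chr2:74716192-74716203 inside all 4 peaks. The Hoxd1 promoter (plus strand, chr2:74762730-74762979) is shown because it lay in ETS1 peaks of 2 libraries, WT library 2 and KO library 1. Its capitals mark the 184 bases inside both peaks.
Hoxa3: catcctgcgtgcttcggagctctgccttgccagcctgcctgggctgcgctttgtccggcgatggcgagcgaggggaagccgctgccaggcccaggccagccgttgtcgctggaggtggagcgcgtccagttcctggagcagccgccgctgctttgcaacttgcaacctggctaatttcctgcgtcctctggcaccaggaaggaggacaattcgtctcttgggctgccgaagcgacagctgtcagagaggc
Hoxd3os1: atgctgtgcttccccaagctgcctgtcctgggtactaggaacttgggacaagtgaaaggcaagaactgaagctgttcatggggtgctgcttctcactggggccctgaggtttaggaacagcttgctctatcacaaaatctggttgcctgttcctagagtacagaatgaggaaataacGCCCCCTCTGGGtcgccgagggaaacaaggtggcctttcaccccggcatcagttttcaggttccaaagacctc
Hoxd1: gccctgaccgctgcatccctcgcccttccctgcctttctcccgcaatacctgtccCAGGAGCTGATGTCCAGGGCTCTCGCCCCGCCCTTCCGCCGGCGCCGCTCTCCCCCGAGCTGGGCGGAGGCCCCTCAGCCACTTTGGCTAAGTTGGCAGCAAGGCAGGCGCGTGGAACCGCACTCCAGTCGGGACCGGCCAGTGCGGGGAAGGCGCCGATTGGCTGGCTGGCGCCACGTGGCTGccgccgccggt
The Hoxa3 and Hoxd1 sequences held no match to CCNNNAGNNGGC, and none of the 3 held CCGGAA, a core that ETS factors bind, on either strand. Over 32851 promoters of 300 bases (250 before and 50 after a start), CCNNNAGNNGGC was found in 8.61% and CCGGAA in 14.9%. Of the 24 promoters of 22 Hox genes in the same table, 4 held CCNNNAGNNGGC and 2 held CCGGAA. A match is a string of letters and no evidence of binding.

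No H3K27ac peak was called in any Hox cluster, in either genotype. The number was 0 peaks in each of the 4 libraries in HoxA, HoxB, HoxC and HoxD, and IgG also gave 0 in both of its libraries. The IgG lists held only 2 (WT) and 285 (KO) peaks over the genome, so their 0 says little. None of the 38 Hox genes with 10 kb flanks had an H3K27ac region in all 4 libraries, where 52.0% of protein-coding genes had one. The number with a region in any library was also 0, against 60.7% of protein-coding genes. The 38 genes lie in 4 loci and their flanks overlap, so they are not separate cases. Of genome windows as long as HoxA, HoxB, HoxC and HoxD, 65.5%, 59.0%, 63.7% and 65.6% also held no H3K27ac peak. An absence over such a length was thus found in most windows. With no acetylated length in WT or KO, the log2 ratio was 0 and there was nothing to test. A site below the calling threshold cannot be told apart from a site with no mark, and Ifng, which Th1 cells are known to express, had no call in 3 libraries.

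**Figure D1:**
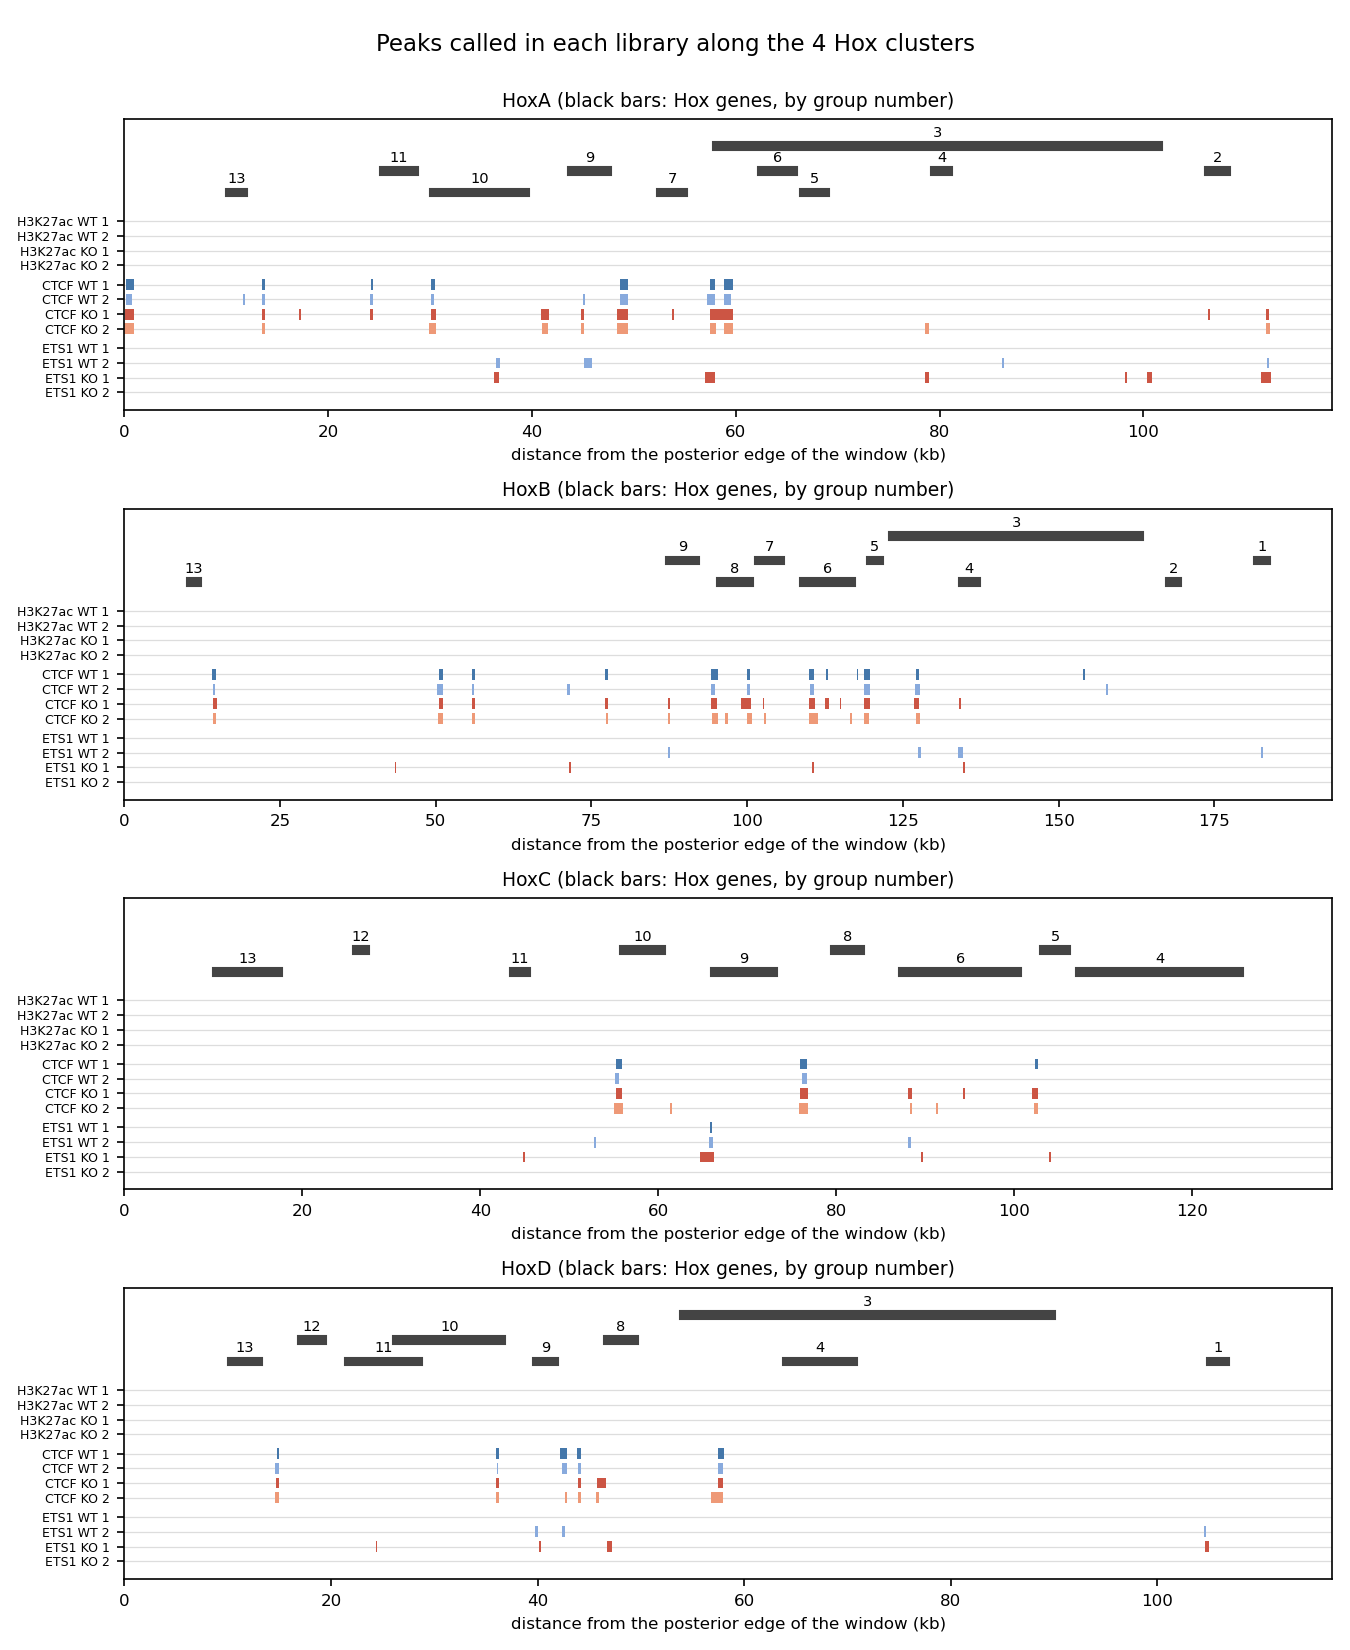
Peaks called in each library along HoxA, HoxB, HoxC and HoxD, as distance in kb from the posterior edge of the window, with Hox genes as black bars labelled by group number and 1 row per antibody and library (blue WT, red KO). All H3K27ac rows are empty, the CTCF peaks of the 4 libraries line up in the posterior and middle parts, and ETS1 peaks come from WT library 2 and KO library 1 apart from 1 peak of WT library 1 at Hoxc9.

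Since the windows held no H3K27ac peak, the stretch free of H3K27ac calls around each cluster had to be longer than the cluster itself. At HoxA it ran for 626.9 kb (chr6:52012825-52639756), from a region 275 bp from Skap2 to one inside Hibadh, and the region near Skap2 was called in 1 library only. At HoxC it ran for 430.1 kb (chr15:102722279-103152345), from 100 bp beside Calcoco1 to 944 bp beside Smug1. The HoxB stretch was 358.9 kb long (chr11:96076138-96435086) and held Calcoco2 and Ttll6 besides the Hox genes. The HoxD stretch was 246.5 kb long (chr2:74579071-74825601), held the homeobox gene Evx2 and ended inside Lnpk on one side and 210 bp from Mtx2 on the other. These ranked 784, 1042, 1221 and 1605 by length for HoxA, HoxC, HoxB and HoxD among 36445 such stretches, whose median was 7.58 kb. Any stretch that holds a whole window without calls is long by construction, so the ranks are a description and no test.

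Some genes next to the clusters carried the mark. Of 23 listed neighbours, 11 had an H3K27ac region in all 4 libraries and 18 in at least 1, beside 52.0% and 60.7% of protein-coding genes, so the first count is near that of genes in general. Nfe2l1, a stress-response transcription factor beside HoxB, had 3.65 and 3.73 kb (WT) and 5.60 and 6.16 kb (KO), the most of the 23. Hibadh, an enzyme of valine breakdown beside HoxA, had 0.797, 0.804, 0.778 and 0.735 kb in the same order. Mtx2, a mitochondrial import protein beside HoxD, had 0.617, 0.631, 0.769 and 0.647 kb. Evx1 and Evx2, homeobox genes at the ends of HoxA and HoxD, and Copz2, Ttll6 and Calcoco2 beside HoxB had 0 kb in every library. Cbx5, the heterochromatin protein gene beside HoxC, had 1.69 kb in WT library 1 and 2.37 and 2.36 kb in KO but 0 kb in WT library 2.

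CTCF, in contrast to the acetyl mark, was called throughout much of the clusters. All 4 windows together held 27 and 26 CTCF peaks in the WT libraries and 36 and 35 in the KO libraries. Per Mb this came to 47.8 and 46.0 in WT and 63.7 and 61.9 in KO, beside 12.3, 11.6, 15.0 and 14.6 over the genome in the same libraries. The Hox density was thus 4.09 times that of the genome (mean log2 2.03 ± 0.07, SD over 4 libraries). All 4 libraries showed the excess, and the exact two-sided sign-flip permutation test gave p = 0.125, the smallest that 4 libraries allow, and p = 0.25, the smallest possible, over the 3 biological replicates. The genome length used is the span of RefSeq genes, 2703 Mb, so gene-poor sequence is part of the comparison.

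**Figure D2:**
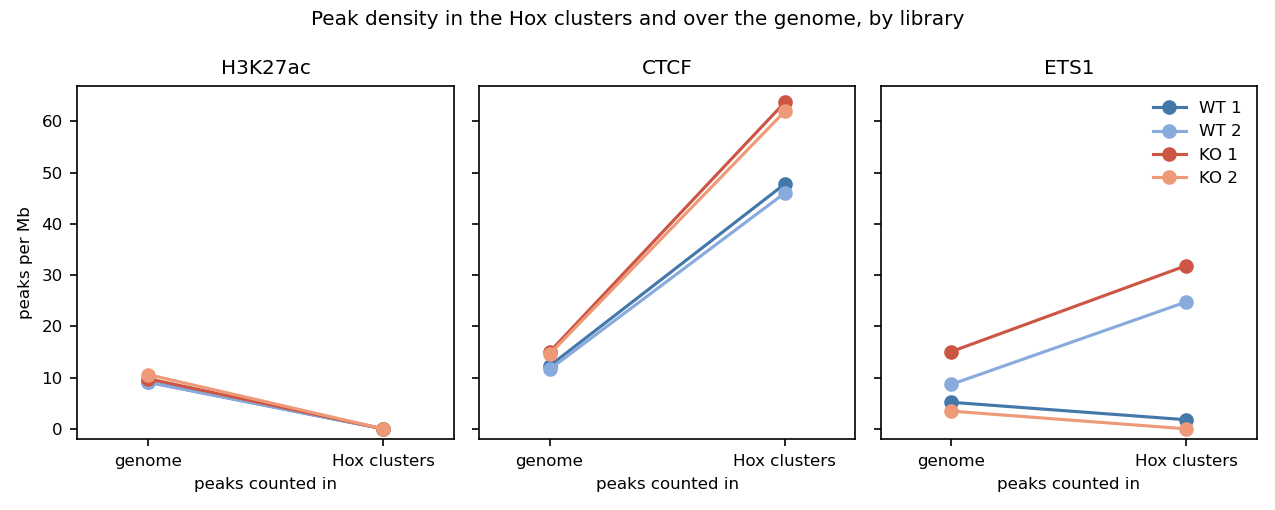
Peaks per Mb over the genome and in the 4 Hox windows, for H3K27ac, CTCF and ETS1, with 1 line per library. H3K27ac falls to 0 in all 4 libraries, CTCF rises in all 4, and ETS1 rises in 2 and falls in 2.

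A clustered locus with a known series of CTCF sites, the protocadherin genes on chromosome 18, was added as a reference after the Hox values had been seen. It spanned 0.932 Mb, and its density was 18.3 and 18.3 peaks per Mb in WT and 20.4 and 21.5 in KO. The Hox windows together exceeded it by 2.78 times (log2 1.47 ± 0.14, SD over 4 libraries), in 4 of 4 libraries (exact two-sided sign-flip permutation p = 0.125 over libraries and 0.25 over the 3 biological replicates). HoxA, HoxB and HoxD each exceeded it in all 4 libraries, but HoxC did not. The HoxC density was 22.1 and 14.7 peaks per Mb in WT libraries 1 and 2, and 36.8 and 44.2 in KO. HoxC also held slightly fewer shared regions per 100 kb than the protocadherin locus.

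The merged CTCF peaks gave 47 regions in the windows. Of these, 19 were shared by all 4 libraries, or 40.4%, where 53.0% of the 47584 CTCF regions of the genome were shared. Both KO libraries and neither WT library had 6 regions, 12.8% of the 47 beside 8.61% over the genome. No region had both WT libraries and neither KO library, beside 0.58% over the genome. The remaining 22 regions comprised 5 in 3 libraries, 1 in a library of each genotype and 16 in a single library (11 in KO and 5 in WT). So a smaller share of the Hox regions was shared than over the genome, while their number per length was higher. Shared regions numbered 3.36 per 100 kb in the windows and 0.933 per 100 kb over the genome, with 4.22 in HoxA, 4.13 in HoxB, 1.47 in HoxC and 3.42 in HoxD.

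Windows of the same length that also lacked any H3K27ac region were laid side by side over the genome as a further description. Of 8218 such windows as long as HoxB, 5 (0.0608%) held at least its 8 shared CTCF regions. For HoxA, 62 of 14946 (0.415%) held at least 5, and for HoxD, 149 of 15160 (0.983%) held at least 4. HoxC, with 2, was matched by 760 of 12685 (5.99%). Among all windows, with or without H3K27ac, the percentages were 6.87 for HoxA, 5.45 for HoxB, 28.7 for HoxC and 10.9 for HoxD. The Hox windows begin and end at genes and the others do not, so these percentages are descriptions and no test.

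The shared regions of HoxA lay in its posterior part and its middle. From the posterior side, the first was chr6:52269914-52271101, 9034 bp beyond Hoxa13, a gene of limb and urogenital tissue. Another lay between Hoxa13 and Hoxa11 (chr6:52257047-52257399), 1 at the outer end of Hoxa10 (chr6:52240308-52240933) and 1 between Hoxa9 and Hoxa7 (chr6:52221408-52222527). At Hoxa10 only the peak of KO library 2 reached the outer start, and the peaks of the other libraries ended inside the gene. The fifth, chr6:52211110-52213678, covered the Hoxa3 start printed above, between Hoxa7 and Hoxa6. It joined a pair of sites that were separate peaks in WT libraries 1 and 2 and in KO library 2 and 1 peak in KO library 1. The −log10 q, the authors' measure of confidence for a peak within its own list, was 1.84, 1.54 and 3.28 for the peak over the Hoxa3 start in WT 1, WT 2 and KO 2. The other site of the pair, toward Hoxa6, had 11.4, 7.59 and 11.2 in the same libraries, and the joined peak of KO 1 had 9.19. The Hoxa3 start was thus under the weaker site of the pair in the 3 libraries that separate them.

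HoxB held 8 shared regions, the most of the clusters. The long interval between Hoxb13 and Hoxb9, which no Hox gene fills, held 3 of them (chr11:96198343-96199135, chr11:96234594-96235563 and chr11:96240160-96240555). The middle one was the strongest of HoxB, with −log10 q of 11.4, 16.2, 16.4 and 11.7 in WT 1, WT 2, KO 1 and KO 2. The next 4 followed the middle genes, with 1 that overlapped the Hoxb8 annotation by 243 of its 1188 bp (chr11:96278456-96279643), 1 inside Hoxb8 (chr11:96283385-96285021), 1 inside Hoxb6 (chr11:96294302-96295765) and 1 that overlapped Hoxb5 by 597 of 1095 bp (chr11:96303014-96304108). The last, chr11:96311179-96312139, lay between Hoxb5 and Hoxb4 within the long Hoxb3 annotation. Gaps between neighbouring shared regions of HoxB ran from 3.74 to 37.9 kb.

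HoxC held 2 shared regions, 1 that overlapped Hoxc10 by 349 of 1042 bp (chr15:102966103-102967144) and 1 between Hoxc9 and Hoxc8 (chr15:102986888-102987964). HoxD held 4. The first, between Hoxd13 and Hoxd12 (chr2:74672839-74673228), had −log10 q of 9.86, 9.44, 16.2 and 18.7, the highest value of any Hox region in a KO library. The second lay in Hoxd10 (chr2:74694210-74694458), the third between Hoxd9 and Hoxd8 (chr2:74702073-74702438), and the fourth, chr2:74715022-74716286, between Hoxd8 and Hoxd4, where it holds the marked letters of the Hoxd3os1 sequence. Of all 19 shared regions, 5 lay wholly inside a Hox gene body, 5 overlapped one in part and 9 lay outside.

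In every cluster the shared regions stopped before the group 4 gene. From the group 4 gene to the anterior edge of each window, 181.2 kb in total held 0 of the 19 shared regions and 5 CTCF regions in all. The other 383.9 kb held all 19 shared regions and 42 CTCF regions. The distance from the anterior-most shared region to the edge of the window was 58.7 kb in HoxA, 66.1 kb in HoxB, 58.9 kb in HoxC and 58.9 kb in HoxD. This division was chosen after the positions had been seen, so it is a description with no test.

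Within their own lists, the shared Hox regions ranked above the typical shared region. Their median rank by the authors' score was at 28.8% and 16.6% of the list from the top in the WT libraries and at 26.8% and 16.7% in the KO libraries. All shared regions of the genome had medians of 39.2%, 41.2%, 32.1% and 33.4%. Hox regions called in fewer than 4 libraries had medians between 87.6% and 91.1%, near the end of each list. Shared Hox regions had a median width of 1042 bp, beside 735 bp for shared regions over the genome, and were 12.5 kb apart in the median (15 gaps), beside 24.5 kb.

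Length under CTCF peaks was greater in both KO libraries than in both WT libraries in each cluster. Over all 4 windows it was 14.4 and 12.5 kb (WT) and 21.1 and 19.7 kb (KO), so the genotypes did not overlap. The means were 13.4 ± 1.37 kb and 20.4 ± 0.98 kb (SD, 2 libraries each), a ratio of 1.52 (log2 0.57 with 1 kb added to each mean, exact two-sided permutation p = 0.333 over libraries and over biological replicates). The genome-wide ratio was 1.31. When each list was shortened to an equal number of its best peaks, the log2 difference fell to 0.27.

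To take the longer KO lists into account, the Hox length was also expressed as a share of all CTCF length of its library, a measure added after the data were seen. The share was 0.0783% and 0.0715% in WT and 0.0863% and 0.0885% in KO. Its mean was 1.17 times as high in KO (0.0749 ± 0.0048% against 0.0874 ± 0.0015%, SD, 2 libraries each, exact two-sided permutation p = 0.333). The genotypes did not overlap in this measure either. The part of list length and peak width in the remaining difference was not tested beyond this.

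**Figure D3:**
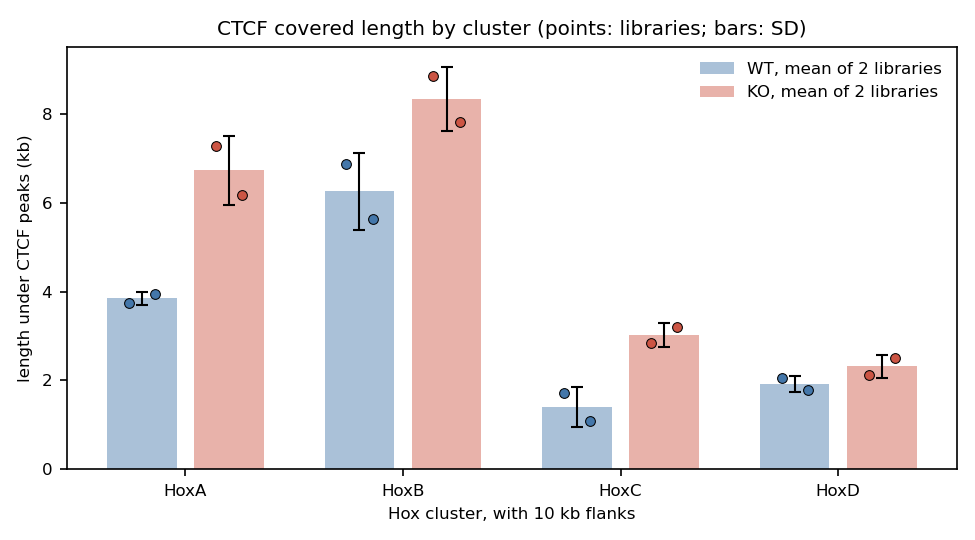
Length under CTCF peaks in kb in each Hox window, with the mean of 2 libraries as bars, the SD as error bars and the libraries as points. KO points lie above WT points in all 4 clusters, with a mean ratio from 1.21 in HoxD to 2.17 in HoxC.

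By cluster, HoxA had 3.74 and 3.96 kb (WT) and 7.29 and 6.18 kb (KO) (means 3.85 ± 0.15 and 6.74 ± 0.78 kb, SD, 2 libraries each, ratio 1.75). HoxB had WT lengths of 6.88 and 5.64 kb and KO lengths of 8.85 and 7.83 kb (ratio 1.33). HoxC, with the least WT length, had WT lengths of 1.72 and 1.07 kb and KO lengths of 2.84 and 3.21 kb (ratio 2.17). HoxD had WT lengths of 2.05 and 1.78 kb and KO lengths of 2.13 and 2.50 kb (ratio 1.21). Each cluster reached the smallest exact permutation p of 0.333 over libraries, and over biological replicates HoxD had an exact p of 0.667 and the others 0.333. Differences between the clusters' ratios were not tested.

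The 6 regions called in both KO libraries only ranked in the lower part of their lists. They lay 3528 bp from Hoxa2 (chr6:52158478-52158889), between Hoxa9 and Hoxa10 (chr6:52229235-52229981), in Hoxb9 (chr11:96271655-96271929), in Hoxb7 (chr11:96286810-96287180), in Hoxc6 (chr15:102999235-102999650) and across 204 bp of Hoxd8 (chr2:74703932-74704818). Their −log10 q ran from 0.767 to 2.83 and their ranks from 63.3% to 99.6% of the list. The highest was at Hoxb9 in KO library 2. The lowest −log10 q in the WT lists was 0.616 and 0.605.

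Counted by gene with 10 kb flanks, 34 of the 38 Hox genes had a CTCF region in at least 1 library. A shared region was present at 28 (73.7%), where 62.4% of protein-coding genes had one, and neighbouring Hox genes count the same region repeatedly. The 28 were 8 of 10 in HoxA, 8 of 10 in HoxB, 4 of 9 in HoxC and 8 of 9 in HoxD. CTCF length was greater in both KO libraries than in both WT libraries at 22 of these 34 Hox genes, or 64.7%, beside 56.3% of the 16073 protein-coding genes with a CTCF peak. The opposite order was found at 0 of the 34, beside 3.02% of those genes. Regions shared between neighbouring Hox genes enter this count more than once, and the difference in the shares was not tested.

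**Figure D4:**
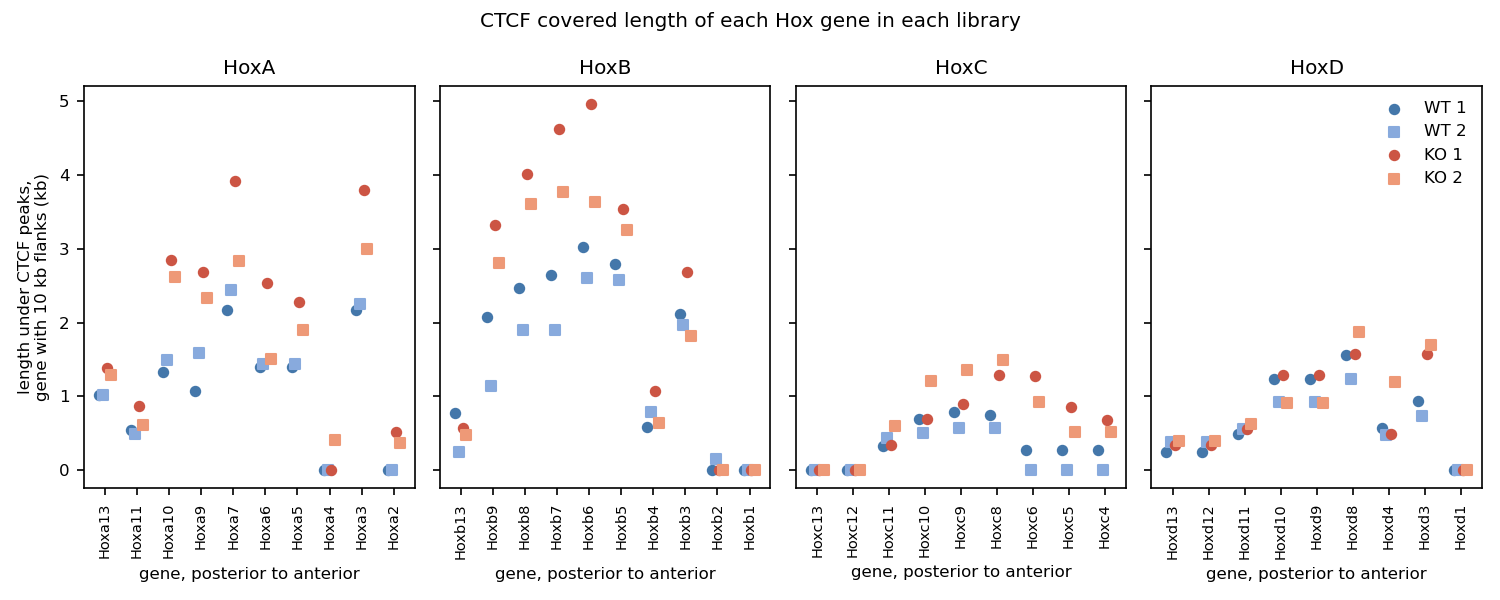
Length under CTCF peaks in kb at each Hox gene with 10 kb flanks, genes ordered from posterior to anterior, with 1 point per library. Values are highest from Hoxb9 to Hoxb5 and around Hoxa7, and are 0 in all libraries at Hoxb1, Hoxc12, Hoxc13 and Hoxd1.

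Middle genes of HoxB, which pattern the trunk, had the longest CTCF coverage. Hoxb6 had WT lengths of 3.03 and 2.61 kb and KO lengths of 4.96 and 3.64 kb. Hoxb7 had WT lengths of 2.65 and 1.89 kb and KO lengths of 4.62 and 3.78 kb. Hoxb5 had WT lengths of 2.79 and 2.57 kb and KO lengths of 3.54 and 3.26 kb, and in each of these 3 genes both KO libraries exceeded both WT libraries. At the other end of HoxB, Hoxb13 had 0.771, 0.243, 0.575 and 0.475 kb in WT 1, WT 2, KO 1 and KO 2, with overlapping genotypes. Hoxb2, a hindbrain gene, had 0.155 kb in WT library 2 only, and Hoxb1 had none.

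In HoxA, the longest coverage was at Hoxa7, with 2.17 and 2.45 kb (WT) and 3.93 and 2.84 kb (KO). Hoxa3, which acts in the pharyngeal arches and thymus, had WT lengths of 2.17 and 2.25 kb and KO lengths of 3.80 and 3.00 kb. Hoxa10, a gene of the uterus and of blood progenitors, had WT lengths of 1.33 and 1.498 kb and KO lengths of 2.85 and 2.62 kb. Hoxa9, known for its activity in blood progenitors and leukaemia, had WT lengths of 1.07 and 1.59 kb and KO lengths of 2.69 and 2.33 kb. Each of these 4 genes was higher in both KO libraries. The shortest were Hoxa11 (0.547, 0.487, 0.872 and 0.617 kb in WT 1, WT 2, KO 1 and KO 2), Hoxa2 with 0.516 and 0.369 kb in KO and none in WT, and Hoxa4 with 0.402 kb in KO library 2 only.

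HoxC genes carried less. Hoxc8 had WT lengths of 0.750 and 0.565 kb and KO lengths of 1.28 and 1.497 kb, Hoxc9 had WT lengths of 0.790 and 0.565 kb and KO lengths of 0.901 and 1.35 kb, and both were higher in KO. Hoxc10, a posterior gene, had WT lengths of 0.695 and 0.509 kb and KO lengths of 0.695 and 1.21 kb, so 1 library of each genotype was equal. Hoxc4 was covered by 0.273 kb in WT library 1, 0 kb in WT library 2, and 0.677 and 0.510 kb in KO. Hoxc12 and Hoxc13 had none in any library.

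In HoxD, Hoxd8 had WT lengths of 1.56 and 1.23 kb and KO lengths of 1.58 and 1.87 kb. Hoxd3 had WT lengths of 0.932 and 0.734 kb and KO lengths of 1.58 and 1.70 kb, and both genes were higher in KO. Hoxd9 and Hoxd10 share the same regions and each had WT lengths of 1.23 and 0.926 kb and KO lengths of 1.295 and 0.915 kb, with overlapping genotypes. Hoxd13 and Hoxd12, the genes of the digits, share 1 region and had WT lengths of 0.248 and 0.380 kb and KO lengths of 0.341 and 0.390 kb. Hoxd1 had none. By paralogue group, with 10 kb flanks, a shared region was present at 5 of 11 genes of groups 1 to 4, 9 of 11 of groups 5 to 8 and 14 of 16 of groups 9 to 13, beside 62.4% of protein-coding genes. The median CTCF lengths were 0.365, 1.75 and 0.703 kb. In groups 1 to 4, Hoxb4 and Hoxd4 count by their flanks. Hoxa3, Hoxb3 and Hoxd3 count by long annotations that reach past the group 4 gene toward the posterior end.

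ETS1 calls in the clusters were unevenly spread over the libraries. There were 1 and 14 peak regions in WT libraries 1 and 2 and 18 and 0 in KO libraries 1 and 2, an order that moves with the length of the lists. Per Mb this was 0.34 and 2.86 times the genome in WT libraries 1 and 2, and 2.1 and 0 times in KO libraries 1 and 2. Merged, they gave 28 regions, of which 24 had 1 library, 3 had 2, 1 had 3 and 0 had all 4. Their −log10 q ran from 0.841 to 2.88, beside medians over the whole lists of 1.66 and 1.70 in WT and 1.51 and 2.28 in KO. No Hox gene had an ETS1 region in all 4 libraries, where 38.2% of protein-coding genes had one, and 31 of the 38 had one in any library, beside 75.3%. ETS1 peaks covered 0.196 and 4.88 kb (WT) and 7.78 and 0 kb (KO), so the genotypes overlapped (2.54 ± 3.31 against 3.89 ± 5.50 kb, SD, 2 libraries each, log2 0.47, exact two-sided permutation p = 1). Without KO library 1 the log2 difference was −1.82 and without WT library 1 it was −0.27, so its direction rests on single libraries.

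The ETS1 region with the most libraries (chr15:102975868-102977346) lay across the annotated start of Hoxc9, at 102977032. It had 196 bp in WT library 1, 438 bp in WT library 2, 1479 bp in KO library 1 and 0 bp in KO library 2. The region at the Hoxd1 start printed above (chr2:74762756-74763180) had 213 bp in WT library 2 and 396 bp in KO library 1. Hoxa10 had 317 and 557 bp in those libraries (chr6:52234063-52234621), and the region beside Hoxa2 had 231 and 908 bp (chr6:52158399-52159306). The last of these overlapped a CTCF region called in both KO libraries only.

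Overlap of the CTCF regions with ETS1 and H3K27ac calls was counted next. Of the 47 Hox CTCF regions, 11 (23.4%) overlapped an ETS1 region of any library, beside 42.8% of all CTCF regions. Of the 19 shared, 3 (15.8%) did, beside 47.9%, and of the 6 called in KO only, 3 did (50%), beside 49.7%. An H3K27ac region overlapped 0 of the 47, beside 40.4% over the genome. The difference in these shares was not tested, since regions of a cluster are not independent.

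Of the 24 Hox promoters at hand, which belong to 22 of the 38 genes, few were under a peak. CTCF covered some part of 3 of the 24 promoters, or 12.5%, beside 36.5% of all 32851 promoters. The 3 were the distal Hoxa3 start in all 4 libraries, a Hoxa10 start in 1 library and the Hoxd8 start in 1 library. ETS1 covered a part of 3 (12.5%, beside 37.3%), at Hoxa3 in KO library 1, at Hoxb4 in WT library 2, and at Hoxd1 in WT library 2 and KO library 1. H3K27ac covered 0, beside 33.7%. Starts of the other Hox genes do not enter these counts. Among them, the annotated start of Hoxb5 lay under CTCF peaks of all 4 libraries. The annotated start of Hoxc10 lay within a shared CTCF region, but the peak of WT library 2 ended before that start. The annotated start of Hoxc9 lay under ETS1 peaks of 3 libraries.

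Genes that build and read Hox chromatin were examined as lists, beside the 52.0% of protein-coding genes with an H3K27ac region in all 4 libraries. All 20 Polycomb genes had an H3K27ac region in all 4 libraries, from Cbx8 (0.338, 0.360, 0.683 and 0.552 kb in WT 1, WT 2, KO 1 and KO 2), a chromodomain subunit with the lowest mean, to Aebp2 (11.02, 10.2, 23.6 and 21.9 kb), a cofactor of the methyltransferase complex. At Cbx8 and Aebp2 both KO libraries exceeded both WT libraries, an order found at 16 of the 20 Polycomb genes in all. It was also found at 7172 of the 13284 protein-coding genes with an H3K27ac region in any library, and the opposite order at 846. Higher H3K27ac length in KO is therefore not particular to these genes. All 10 genes of the MLL complexes and H3K27 demethylases and all 11 of CTCF and cohesin had one too, among them the MLL gene Kmt2b with 12.3, 12.8, 19.4 and 19.7 kb and Ctcf with 3.58, 2.99, 4.40 and 4.44 kb. Of 9 TALE cofactors, homeodomain partners of Hox proteins, 5 had a region in all 4 libraries, a share close to that of all genes. Pbx2 had the most (8.46, 7.14, 8.60 and 8.87 kb), while Meis1 and Meis2 had 0 kb in every library.

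Most other developmental homeobox genes also had no H3K27ac call. Of 40 such genes, 3 (Lhx1, Lhx9 and Pitx3) had an H3K27ac region in all 4 libraries and the other 37 had 0 kb in each, and of 6 ParaHox genes none had one. A shared CTCF region was present at 11 of the 40 and 2 of the 6, beside 28 of the 38 Hox genes. Cdx2, a ParaHox gene of the gut, had 3 shared CTCF regions, and no H3K27ac. These counts describe the lists, and the difference between them was not tested.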

How the data were processed

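CUT&RUN peak lists of 14 libraries were used, 12 of them for H3K27ac, CTCF and ETS1. BWA and the build GRCm38 are named in the submitters' processing notes, and the peak names in the deposited files follow MACS2. Each deposited list gives per peak the authors' score (10 times −log10 q, as a whole number), a fold enrichment, −log10 p and −log10 q. These values are the authors' own, set separately for each library, and served here to rank or filter peaks inside a list. The fold ratio deposited by the authors was read and not reported. For calling options, a control library in calling and duplicate removal, the status is not given in the sources used here. CTCF lists of WT carry different numbers in their own names than in the titles, and the titles were followed.

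Peaks on chromosomes 1 to 19, X and Y were merged at an overlap of 1 bp with Python 3.11.15 (pandas 2.3.3, numpy 2.4.6). Covered length was summed per library, and WT and KO were compared by exact two-sided permutation tests over libraries, repeated over biological replicates, which cannot pass 0.05 here. Log2 ratios add 1 kb to each mean. The code was tested on simulated peaks. Genes and promoters came from RefSeq, and 182 of 183 list genes were matched. The members and lists were chosen with earlier results of these data known. The naming rule takes Hox genes with an H3K27ac or ETS1 peak, the 3 with the longest and the 3 with the shortest CTCF length per cluster, and the neighbours, shared regions and extreme genes of each list. Where it took too many to print, the others are given as counts. Hoxa9, Ifng, Ctcf and Cdx2 were named after their values were seen. Motif orientation was not analysed here, since no genome sequence was used. Some genes of the lists are not reported here by name and stay in the counts.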

Additional observations from a re-analysis of the deposited data

How the results depend on the processing

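The higher CTCF density in the clusters and the greater CTCF length in KO kept their direction under each alternative run, with a log2 CTCF difference between 0.27 and 0.77 and a log2 density ratio between 1.58 and 2.35. Shared CTCF regions fell from 19 to 10 at a −log10 q of at least 5 and to 1 at 10, since fewer peaks are left. Hox genes with a shared CTCF region fell from 28 to 9 without flanks and to 0 at a −log10 q of at least 10. The ETS1 difference was 0 at both thresholds, where no peak is left, and ran from −1.82 to 2.03 when a library was left out, reversing without KO library 1 (−1.82) and without WT library 1 (−0.27). The ETS1 gene count then ran from 0 to 2, with 2 only without KO library 2. Under the replicate block, which pairs libraries by number alone, the log2 difference was 0.57 for CTCF, 0.16 for ETS1 and 0 for H3K27ac. With no H3K27ac peak in the windows, wider flanks were the only alternative that could change that result, and flanks of 50 kb also gave 0. With each biological replicate counted once, the log2 values were 0.57 for CTCF length, 2.05 for CTCF density (exact sign-flip permutation p = 0.25) and 0.47 for ETS1. Depth is unknown, so weak sites could be missed in any list.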
